A study of Mus musculus with 9 samples.

Results

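Cells from the suprabasal layers of the hair bulb (suprabasal HB) were set against cells of the outer root sheath (ORS) by bulk RNA sequencing of mouse back skin. Libraries were chosen by their labelled population, which gave 2 of suprabasal HB and 2 of ORS, or 4 of the 9 libraries in the series. The other 5 were 2 libraries of basal hair bulb cells (basal HB) and 3 of hair follicle stem cells (HFSC). All cells were isolated by flow cytometry at postnatal day 30, in anagen VI, when the follicle is fully grown and makes hair, by GFP together with surface CD34, P-cadherin, Sca-1 and the integrins α6 and β1. The strain label of both groups reads Lhx2-GFP (CD1), a reporter for the LIM homeobox factor LHX2, whereas the extraction text names K14-H2BGFP mice, in which a keratin 14 promoter drives a GFP-tagged histone. Neither group carried a stated treatment or mutation, and the sex label was "Mixed". The gates that separated the groups and the number of mice behind a library are not stated. Nothing says that replicates came from separate animals, so p-values measure the spread between these samples, which may be partly technical. The 2 ORS libraries differed in Xist, an RNA of female cells (values below), so they did not come from the same set of mice.

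In the growing follicle, progenitors at the base of the bulb surround the dermal papilla, divide a limited number of times and move upward as they differentiate. The suprabasal bulb holds the precursors of the hair shaft and of the inner root sheath, the channel that moulds the shaft. The ORS is the outermost epithelial layer, lies on the basement membrane and links the stem cells of the bulge to the bulb. WNT signals, read by β-catenin with LEF and TCF factors, drive hair shaft fate. BMP and NOTCH signals act in shaft and inner root sheath differentiation, and Sonic hedgehog made by the bulb keeps neighbouring cells dividing.

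Depth was 50752545 and 45438637 expected counts in suprabasal HB and 64569201 and 88596741 in ORS. Of 20491 genes tested with edgeR's quasi-likelihood test and Benjamini-Hochberg adjustment (adjusted p under 0.05), 2927 were higher and 3094 lower in suprabasal HB. These counts are 29.4% of all genes in either direction, 14.3% higher and 15.1% lower, and they are the background for every group count against ORS that follows. With 1 ORS library left out, replicate 2, the counts were 1831 higher and 2053 lower. For counts against basal HB, the background was 13.1% of all genes higher and 14.8% lower in suprabasal HB. The median log2 change over all genes was -0.01 against ORS. On the authors' TPM scale with a pseudocount of 1 that median was -0.13 and 31.3% of called genes were higher, against 48.6% on counts, so changes close to 0 depend on the scaling. Levels are given below as normalised CPM, counts scaled to a common library size, in libraries 1 and 2 of each group, log2 changes are suprabasal HB over ORS, and "rose" or "fell" is used only of genes past the threshold. Across genes, log2 levels correlated at r = 0.985 within suprabasal HB and 0.982 within ORS, and at 0.927 to 0.952 between them. In bulk RNA, fewer cells of a type and less RNA per cell cannot be told apart.

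The markers that define the groups mostly matched the labels. Krt35, a keratin of the hair shaft cortex, had 1431 and 1581 CPM in suprabasal HB, against 50.2 and 12.4 CPM in ORS (log2 change 5.59 ± 0.62 (SE), adjusted p = 2.26e-04). Lhx2 had 476 and 235 CPM in suprabasal HB, against 2961 and 3383 CPM in ORS (log2 change -3.16 ± 0.31 (SE), adjusted p = 1.24e-04). Cells were sorted by GFP and the strain label names an Lhx2 reporter, so this difference may follow from the gate. Lgr6, an R-spondin receptor of sheath and isthmus cells, had 29.5 and 18.3 CPM in suprabasal HB, against 128 and 209.7 CPM in ORS (log2 change -2.82 ± 0.28 (SE), adjusted p = 1.26e-04). Each of these 3 separated the groups without overlap, as did 65.1% of all genes tested. Krt71, a keratin of the inner root sheath, had 905 and 479.6 CPM in suprabasal HB and 482 and 209.8 CPM in ORS. The groups overlapped and it did not pass the test (log2 change 1.002, adjusted p = 0.16). Without ORS replicate 1 it rose (log2 change 1.72, adjusted p = 0.0425). It also passed with the replicate block in the fit of 4 libraries (adjusted p = 0.018). It was higher in suprabasal HB than in basal HB, where it had 120.4 and 90.7 CPM.

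**Figure D1:**
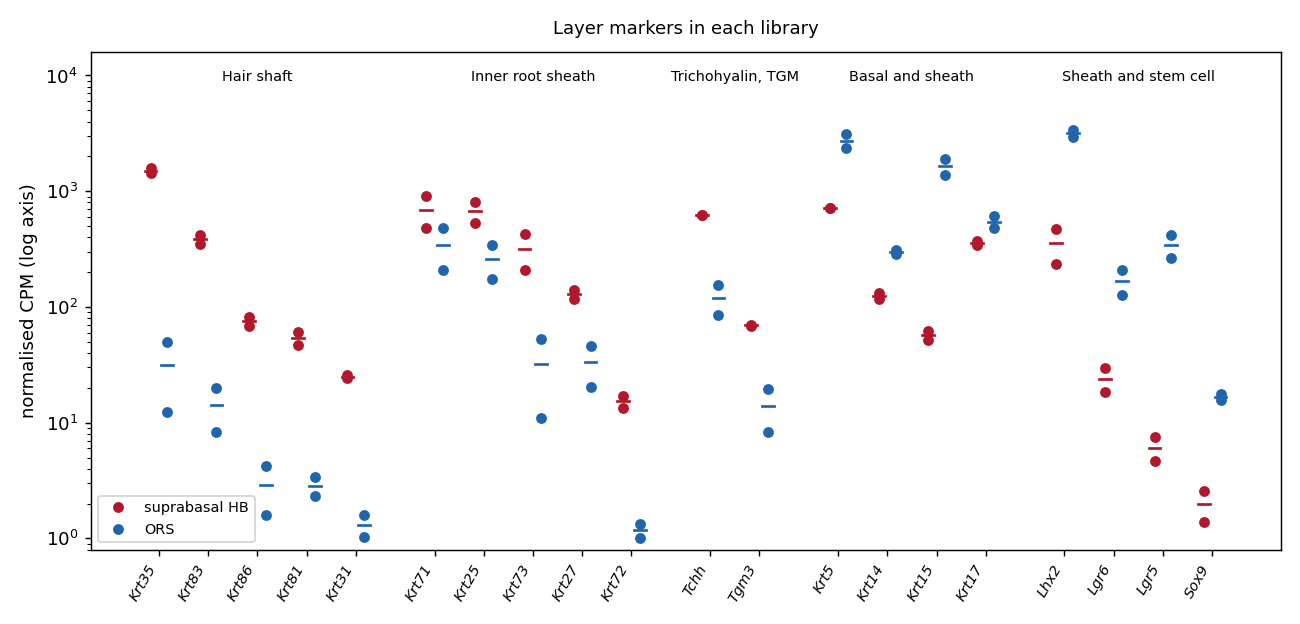
Normalised CPM (log axis) of marker genes in each library, with suprabasal HB in red and ORS in blue; points are the 2 libraries of each population and bars their mean. Hair shaft keratins sit far above ORS in both suprabasal HB libraries, Krt71 overlaps, and Krt15, Lhx2, Lgr6, Lgr5 and Sox9 are higher in both ORS libraries; heights are not comparable between genes, since CPM is not divided by gene length.

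Hair shaft keratins had the largest median difference among the structural gene lists. Of 13 tested, 10 rose in suprabasal HB, with a median log2 change of 4.25 over the list. They took 0.208% and 0.220% of counts in suprabasal HB, against 0.009% and 0.003% in ORS. Krt83, a type II keratin of the cortex, had 349.9 and 419.8 CPM in suprabasal HB, against 19.9 and 8.34 CPM in ORS (log2 change 4.77 ± 0.39 (SE), adjusted p = 4.55e-05). Krt86, another type II keratin, had 67.9 and 81.8 CPM in suprabasal HB, against 4.24 and 1.59 CPM in ORS (log2 change 4.70 ± 0.40 (SE), adjusted p = 5.37e-05), and Krt81 had 46.9 and 60.2 CPM in suprabasal HB, against 3.38 and 2.30 CPM in ORS (log2 change 4.24 ± 0.33 (SE), adjusted p = 3.62e-05). For these 3 genes each suprabasal value was at least 10 times the higher ORS value. Among the type I genes, Krt36 had 16.3 and 15.2 CPM in suprabasal HB, against 0.797 and 0.413 CPM in ORS (log2 change 4.71 ± 0.33 (SE), adjusted p = 2.43e-05), and Krt31, a late cortex keratin, had 25.7 and 24.2 CPM in suprabasal HB, against 1.02 and 1.60 CPM in ORS (log2 change 4.25 ± 0.24 (SE), adjusted p = 8.88e-06). Krt82, known from the cuticle, had 19.2 and 23.1 CPM in suprabasal HB, against 1.28 and 0.480 CPM in ORS (log2 change 4.598, adjusted p = 1.12e-04), and Krt84, known from tongue and nail as well, had 4.20 and 4.86 CPM in suprabasal HB, against 0.295 and 0.168 CPM in ORS. Krt33a and Krt33b rose as well (log2 changes 2.87 and 3.07). Krt39, Krt34 and Krt32 did not pass. Krt39 had 1.34 and 0.694 CPM in suprabasal HB and 0.399 and 0.145 CPM in ORS, and rose without ORS replicate 1 (adjusted p = 0.0424). Krt34 had 0.566 and 2.22 CPM in suprabasal HB and 0.236 and 0.670 CPM in ORS, and overlapped. Krt32, a cuticle keratin, had 1.04 and 0.761 CPM in suprabasal HB and 1.58 and 1.36 CPM in ORS. Krt31, Krt33a, Krt33b, Krt34, Krt81, Krt83 and Krt86 share stretches of sequence with close copies, so the division of reads among them is uncertain. Of the 13, 11 were also higher in suprabasal HB than in basal HB, where 13.1% of all genes were higher.

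Keratin-associated proteins fill the space between keratin filaments of the shaft and are made late in differentiation. Of 57 of their genes, 8 had enough counts to be tested, of which 7 rose and 1 fell, and 0 fell without ORS replicate 1 or without either suprabasal replicate. Such genes pass the filter through the population where they are high, so the count does not stand for the untested ones. Krtap7-1 had 10.5 and 28.4 CPM in suprabasal HB, against 0.945 and 1.196 CPM in ORS (log2 change 4.18 ± 0.44 (SE), adjusted p = 1.65e-04). Krtap11-1 had 9.39 and 15.5 CPM in suprabasal HB, against 0.782 and 0.804 CPM in ORS (log2 change 3.96 ± 0.28 (SE), adjusted p = 2.31e-05), and Krtap8-1 had 31.6 and 91.3 CPM in suprabasal HB, against 7.07 and 5.49 CPM in ORS (log2 change 3.29 ± 0.42 (SE), adjusted p = 4.79e-04). Suprabasal replicate 2 was the higher library for all of these.

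Promoter sequences of 3 type I hair keratin genes of 1 cluster on chromosome 11 are printed because the hair keratins moved together and a LEF1 binding motif is known from hair keratin promoters. RefSeq promoter windows (GRCm38.p6, 250 bases before to 50 after the start) matched 9 of the 15 listed hair shaft keratins, and the 250 bases before the start are shown 5′ to 3′ on the gene's strand. Capitals mark CTTTGAA, a LEF/TCF-type motif, and TATAAA, a core promoter element that helps position the start, searched on both strands.
Krt31 (chr11:100050552-100050801, - strand): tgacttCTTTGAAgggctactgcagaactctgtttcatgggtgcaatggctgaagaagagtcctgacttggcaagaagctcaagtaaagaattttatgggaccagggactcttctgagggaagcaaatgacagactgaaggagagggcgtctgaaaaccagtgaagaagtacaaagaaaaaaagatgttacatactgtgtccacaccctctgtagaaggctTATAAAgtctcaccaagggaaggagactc
Krt33b (chr11:100029869-100030118, - strand): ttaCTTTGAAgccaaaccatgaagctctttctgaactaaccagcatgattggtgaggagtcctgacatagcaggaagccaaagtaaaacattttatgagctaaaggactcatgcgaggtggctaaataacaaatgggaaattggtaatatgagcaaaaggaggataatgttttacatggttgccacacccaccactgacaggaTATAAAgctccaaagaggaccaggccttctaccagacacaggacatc
Krt34 (chr11:100041555-100041804, - strand): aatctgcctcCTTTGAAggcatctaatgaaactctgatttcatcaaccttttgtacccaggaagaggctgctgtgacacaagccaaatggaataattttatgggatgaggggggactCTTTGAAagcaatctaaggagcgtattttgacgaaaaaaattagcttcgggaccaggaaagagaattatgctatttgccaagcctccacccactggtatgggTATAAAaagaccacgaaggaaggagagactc
CTTTGAA was present in the windows of 5 of the 9 genes, Krt31, Krt32, Krt33b, Krt34 and Krt39, and of 5.93% of all 27025 genes with a window. In each of the 5 a match was part of the longer CTTTGAAG, found in 1.95% of all genes with a window. Its first base lay 244, 247 and 240 bases before the start in Krt31, Krt33b and Krt34, and Krt34 held another 133 bases before the start. TATAAA was present in 6 of the 9 genes and 15.7% of all genes with a window, and began 29, 47 and 31 bases before the start in the printed genes. In Krt84 the match lay on the other strand, 206 bases before the start. The other LEF/TCF-type motif searched, CTTTGAT, was found in 0 of the 9 and in 4.29% of all genes with a window. The printed windows belong to near copies in 1 gene cluster and are not independent sequences. Of the 5 genes that hold the motif, Krt32, Krt34 and Krt39 did not pass the test between suprabasal HB and ORS.

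Inner root sheath keratins were also higher in suprabasal HB, but the ORS libraries held clear levels of several. Of 8 tested, 6 rose, with a median log2 change of 1.91. Krt73 had 427 and 209 CPM in suprabasal HB, against 52.6 and 11.1 CPM in ORS (log2 change 3.33 ± 0.66 (SE), adjusted p = 0.00528), and Krt72, which like Krt73 is known from the sheath cuticle, had 17.1 and 13.5 CPM in suprabasal HB, against 1.33 and 1.02 CPM in ORS (log2 change 3.71 ± 0.37 (SE), adjusted p = 1.23e-04). Krt27 had 140.4 and 116 CPM in suprabasal HB, against 46.1 and 20.3 CPM in ORS (log2 change 1.95 ± 0.35 (SE), adjusted p = 0.00292), and Krt25 had 807 and 533 CPM in suprabasal HB, against 341 and 174 CPM in ORS (log2 change 1.38 ± 0.37 (SE), adjusted p = 0.0216). Krt26 and Krt74 rose at lower levels (log2 changes 1.86 and 3.25). Krt25, Krt26 and Krt74 did not pass without ORS replicate 2 (adjusted p = 0.111, 0.0712 and 0.109), nor did Krt25 and Krt74 without suprabasal replicate 1 (adjusted p = 0.108 and 0.184) or Krt26 without suprabasal replicate 2 (adjusted p = 0.0836). Krt28 had 388 and 285 CPM in suprabasal HB and 219 and 184 CPM in ORS and, like Krt71, did not pass. In ORS, replicate 1 held more of each of the 8 keratins than replicate 2, and without ORS replicate 2, 3 of them rose.

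Trichohyalin and the enzymes that modify and crosslink it harden the inner root sheath and medulla. Of 12 tested, 7 rose and 1 fell. Tchh, trichohyalin itself, had 628 and 622 CPM in suprabasal HB, against 156 and 85.1 CPM in ORS (log2 change 2.38 ± 0.28 (SE), adjusted p = 3.01e-04). Tgm3, a transglutaminase that crosslinks it, had 70.1 and 68.6 CPM in suprabasal HB, against 19.7 and 8.23 CPM in ORS (log2 change 2.32 ± 0.37 (SE), adjusted p = 0.00161). S100a3, a calcium-binding protein of the hair cuticle, had 34.6 and 54.5 CPM in suprabasal HB, against 10.3 and 4.59 CPM in ORS (log2 change 2.59 ± 0.36 (SE), adjusted p = 8.23e-04). Tgm1, Tgm6, Padi1 and Padi2, further transglutaminases and peptidylarginine deiminases, rose with log2 changes from 1.60 to 2.21, but Padi1 and Padi2 did not pass without ORS replicate 2 (adjusted p = 0.0529 and 0.0868), nor did Padi2 without suprabasal replicate 1 (adjusted p = 0.0845). Padi3, which citrullinates trichohyalin, had 216 and 354 CPM in suprabasal HB and 215 and 289 CPM in ORS, and overlapped. Casp14, a protease of cornifying cells, had 0.716 and 0.291 CPM in suprabasal HB, against 4.68 and 7.79 CPM in ORS (log2 change -3.60 ± 0.40 (SE), adjusted p = 2.22e-04). Against basal HB the list ran the other way, and 10 of the 12 were lower in suprabasal HB than in basal HB, where 14.8% of all genes were lower. Tchh had 3818 and 4193 CPM in the basal HB libraries.

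Keratins of the basal layer and the sheath were mostly lower in suprabasal HB. Of 10 tested, 5 fell and 2 rose. Krt15, known from bulge and basal ORS cells, had 52.1 and 62.3 CPM in suprabasal HB, against 1379 and 1894 CPM in ORS (log2 change -4.84 ± 0.27 (SE), adjusted p = 8.83e-06). Krt5, the type II keratin of basal cells, had 709.9 and 719.9 CPM in suprabasal HB, against 2349 and 3090.4 CPM in ORS (log2 change -1.93 ± 0.17 (SE), adjusted p = 6.27e-05), and its partner Krt14 had 117 and 133 CPM in suprabasal HB, against 286 and 308 CPM in ORS (log2 change -1.25 ± 0.20 (SE), adjusted p = 0.00166). Krt19, another bulge and sheath keratin, had 0.792 and 1.01 CPM in suprabasal HB, against 4.10 and 3.96 CPM in ORS, and Krt17 had 341 and 374 CPM in suprabasal HB, against 611 and 476 CPM in ORS (log2 change -0.61, adjusted p = 0.0282). Krt75, a keratin of the companion layer between inner and outer sheath, had 193 and 249.8 CPM in suprabasal HB, against 137 and 112 CPM in ORS and rose (log2 change 0.83 ± 0.17 (SE), adjusted p = 0.00604). Krt17 passed with all libraries, but its adjusted p was 0.152 without ORS replicate 1, 0.121 without suprabasal replicate 1 and 0.0763 without suprabasal replicate 2. Krt16, a stress keratin of the sheath, had 1.34 and 1.19 CPM in suprabasal HB, against 0.694 and 0.391 CPM in ORS (log2 change 1.23, adjusted p = 0.044), and its adjusted p was 0.234 without ORS replicate 2, 0.135 without suprabasal replicate 1 and 0.0948 without suprabasal replicate 2. Krt14, Krt16 and Krt6a share sequence with close copies.

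Genes that mark the ORS and the stem cell bulge fell together in suprabasal HB. Of 24 tested, 18 fell and 5 rose, with a median log2 change of -1.64. The list shares 2 members with the sort markers, whose levels are not an independent result. Lgr5, a receptor for R-spondins on stem cells of the bulge and lower sheath, had 7.46 and 4.68 CPM in suprabasal HB, against 265 and 422 CPM in ORS, or 56.4-fold higher in ORS (log2 change -5.82 ± 0.34 (SE), adjusted p = 1.10e-05). Lrig1, a repressor of EGF receptor signalling, had 12.1 and 6.15 CPM in suprabasal HB, against 206 and 283 CPM in ORS (log2 change -4.74 ± 0.34 (SE), adjusted p = 2.59e-05). Both were several times lower than any ORS value in each suprabasal library. Tcf7l1, a TCF factor that represses WNT target genes in stem cells, had 7.94 and 5.51 CPM in suprabasal HB, against 66.7 and 95.1 CPM in ORS (log2 change -3.59 ± 0.29 (SE), adjusted p = 4.57e-05), and Tbx1, a T-box factor of bulge cells, had 23.3 and 21.5 CPM in suprabasal HB, against 212 and 308 CPM in ORS (log2 change -3.54 ± 0.29 (SE), adjusted p = 4.55e-05). Sox9, which maintains the bulge and the ORS, had 2.54 and 1.39 CPM in suprabasal HB, against 17.5 and 15.7 CPM in ORS (log2 change -3.06 ± 0.22 (SE), adjusted p = 2.81e-05). Trp63, the p63 factor of stratified epithelia, fell less, to 361 and 429 CPM in suprabasal HB, against 643 and 724 CPM in ORS (log2 change -0.79 ± 0.13 (SE), adjusted p = 0.00163). Of the 5 that rose, Foxc1 had 9.44 and 5.57 CPM in suprabasal HB, against 1.27 and 0.358 CPM in ORS (log2 change 3.23 ± 0.53 (SE), adjusted p = 0.00203), Nfatc1 had 7.50 and 6.60 CPM in suprabasal HB, against 2.57 and 1.04 CPM in ORS (log2 change 1.98, adjusted p = 0.00684), and Foxp1 had 188 and 244 CPM in suprabasal HB, against 130.4 and 123 CPM in ORS (log2 change 0.77, adjusted p = 0.00204). Foxc1 and Nfatc1 are known for holding bulge stem cells in quiescence, and both had their lower levels in ORS. Without suprabasal replicate 1, 3 members of the list rose.

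Basement membrane and hemidesmosome genes, which anchor basal cells to the matrix below, fell as a group. Of 35 tested entries, 23 fell and 5 rose, with a median log2 change of -1.29. Among the matrix components, Tnc, tenascin C, had 12.6 and 5.77 CPM in suprabasal HB, against 226 and 410.5 CPM in ORS (log2 change -5.11 ± 0.47 (SE), adjusted p = 8.04e-05). Col4a1 and Col4a2, the main collagen IV chains, had 83.8 and 51.7 CPM and 49.5 and 28.6 CPM in suprabasal HB, against 583 and 817 CPM and 346 and 517 CPM in ORS (log2 changes -3.37 and -3.47). Both ORS libraries lay far above both suprabasal libraries for each chain. Among the receptors, Itgb6 had 2.36 and 1.41 CPM in suprabasal HB, against 21.0 and 16.4 CPM in ORS (log2 change -3.30 ± 0.25 (SE), adjusted p = 3.57e-05). Itga6 and Itgb1, subunits of the laminin and matrix receptors used in the sort, fell by 0.55 and 0.75 on the log2 scale, and Itga6 did not pass without ORS replicate 2 (adjusted p = 0.0826) or suprabasal replicate 1 (adjusted p = 0.0647). Members that rose included Egfl6, a matrix protein of the follicle, with 69.6 and 103 CPM in suprabasal HB, against 8.43 and 6.91 CPM in ORS (log2 change 3.50 ± 0.21 (SE), adjusted p = 1.24e-05), and Npnt, nephronectin, an integrin ligand known from the bulge, with 58.8 and 40.6 CPM in suprabasal HB, against 14.98 and 5.85 CPM in ORS (log2 change 2.26 ± 0.41 (SE), adjusted p = 0.00319). Nid2, a linker of laminin and collagen IV, had 24.6 and 11.6 CPM in suprabasal HB, against 4.56 and 2.02 CPM in ORS (log2 change 2.47, adjusted p = 0.0032), and its exons overlap another gene on the opposite strand. A second entry named Dst, not matched to the annotation, had 11.7 and 5.89 CPM in suprabasal HB and 0 in both ORS libraries, while the main Dst entry, the plaque protein dystonin, fell (log2 change -1.41, adjusted p = 4.36e-04). Of the 35 entries, 26 were also lower in suprabasal HB than in basal HB, where 14.8% of all genes were lower.

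Desmosomes and adherens junctions, which hold epithelial cells to one another, did not fall with the basement membrane. Of 21 tested, 6 rose, 2 fell and the rest were not called. Dsg4, the desmoglein of the differentiating hair shaft, had 78.0 and 61.3 CPM in suprabasal HB, against 4.25 and 0.950 CPM in ORS (log2 change 4.76 ± 0.58 (SE), adjusted p = 3.61e-04). Dsc1, a desmocollin of differentiated layers, had 44.8 and 26.9 CPM in suprabasal HB, against 15.8 and 7.14 CPM in ORS (log2 change 1.65 ± 0.46 (SE), adjusted p = 0.0269). Dsc1 did not pass without ORS replicate 2 (adjusted p = 0.131) or without suprabasal replicate 1 (adjusted p = 0.133). Pkp1, a desmosomal plaque protein, had 272 and 252 CPM in suprabasal HB, against 137 and 104 CPM in ORS (log2 change 1.12 ± 0.17 (SE), adjusted p = 0.00144). Dsg2, the desmoglein of simple and basal epithelia, fell to 122 and 104.5 CPM in suprabasal HB, against 172 and 206 CPM in ORS (log2 change -0.74 ± 0.12 (SE), adjusted p = 0.0016). Cdh3, which encodes P-cadherin, had 362 and 317 CPM in suprabasal HB and 352 and 459 CPM in ORS and did not pass (log2 change -0.26, adjusted p = 0.262). With the fit restricted to the 4 libraries, 3 members of the list rose, and the count that fell was 1 without ORS replicate 2 or without either suprabasal replicate.

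Gap junction connexins divided by member. Of 8 tested, 4 rose and 3 fell. Gjb5 had 23.4 and 24.8 CPM in suprabasal HB, against 4.18 and 2.53 CPM in ORS (log2 change 2.85 ± 0.24 (SE), adjusted p = 5.85e-05). Gjb2, the connexin whose human mutations cause deafness with skin disease, ran the other way with 496 and 466 CPM in suprabasal HB, against 2164 and 2994 CPM in ORS (log2 change -2.42 ± 0.21 (SE), adjusted p = 5.84e-05). Gjb6 and Gja1, the major epidermal connexin 43 gene, fell by 1.29 and 0.74 on the log2 scale, and Gja1 did not pass without ORS replicate 2 (adjusted p = 0.0948) or suprabasal replicate 2 (adjusted p = 0.0638). Gjc3 and Gjd3 rose (log2 changes 2.25 and 4.62), but Gjd3 did not pass without ORS replicate 2 (adjusted p = 0.128), without either suprabasal replicate (adjusted p = 0.0708 and 0.0818) or in DESeq2 (adjusted p = 0.0721).

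Transcription factors of the hair lineages were mostly higher in suprabasal HB than in ORS. Of 24 tested, 14 rose and 7 fell. Against basal HB, 4 of the 24 were higher in suprabasal HB and 10 lower, where 13.1% of all genes were higher and 14.8% lower. Hoxc13 had 497 and 533 CPM in basal HB and Msx2 295 and 313 CPM, and both were lower in suprabasal HB. Foxn1, with 7.68 and 6.26 CPM in basal HB, was higher in suprabasal HB. Runx3 had 77.0 and 54.3 CPM in suprabasal HB, against 2.24 and 0.436 CPM in ORS (log2 change 5.65 ± 0.69 (SE), adjusted p = 3.77e-04), the widest difference in the list. Lef1, the WNT effector of hair shaft precursors, had 311 and 329 CPM in suprabasal HB, against 98.8 and 53.8 CPM in ORS (log2 change 2.07 ± 0.25 (SE), adjusted p = 3.90e-04). Prdm1, the BLIMP1 repressor of inner root sheath precursors, had 68.3 and 93.9 CPM in suprabasal HB, against 25.7 and 10.4 CPM in ORS (log2 change 2.17 ± 0.35 (SE), adjusted p = 0.00191), and Sox21, known from the hair cuticle, had 132 and 130.2 CPM in suprabasal HB, against 39.5 and 22.1 CPM in ORS (log2 change 2.09 ± 0.23 (SE), adjusted p = 2.20e-04). Hoxc13, an activator of hair keratin genes, had 270.4 and 354 CPM in suprabasal HB, against 104.7 and 118 CPM in ORS (log2 change 1.48 ± 0.14 (SE), adjusted p = 1.06e-04). Foxn1, the nude factor, which acts on hair keratins, had 27.4 and 23.5 CPM in suprabasal HB, against 11.2 and 10 CPM in ORS (log2 change 1.26 ± 0.21 (SE), adjusted p = 0.00198), and Ovol1 had 78.7 and 73.7 CPM in suprabasal HB, against 25.9 and 18.2 CPM in ORS (log2 change 1.79 ± 0.18 (SE), adjusted p = 1.44e-04). Msx2, a homeobox factor of the bulb, had 219 and 238 CPM in suprabasal HB, against 165 and 169 CPM in ORS (log2 change 0.45, adjusted p = 0.0304), and did not pass with any 1 of the 4 libraries left out (adjusted p = 0.0547 to 0.12). Dlx3, a regulator of shaft and inner root sheath, had 448 and 515 CPM in suprabasal HB and 431 and 479 CPM in ORS, with overlap. Gata3, the inner root sheath factor, fell to 99.7 and 54.8 CPM in suprabasal HB, against 119 and 148 CPM in ORS (log2 change -0.79 ± 0.24 (SE), adjusted p = 0.038), although it was higher in suprabasal HB than in basal HB, where it had 38.4 and 38.5 CPM. Its fall did not pass without ORS replicate 2 (adjusted p = 0.18), without suprabasal replicate 2 (adjusted p = 0.122), or without any 1 of the HFSC or basal HB libraries (adjusted p = 0.0543 to 0.0663). Vdr, the vitamin D receptor, needed for follicle cycling, had 72.4 and 90.2 CPM in suprabasal HB, against 936 and 1332 CPM in ORS (log2 change -3.80 ± 0.28 (SE), adjusted p = 3.05e-05). Barx2, Cux1 and Dlx1, homeobox factors, fell with log2 changes of -3.73, -1.87 and -1.68, and for each both ORS libraries lay above both suprabasal libraries.

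WNT feedback and target genes were mostly higher in suprabasal HB, and ligands and secreted antagonists are given by member. Of 10 ligands tested, 5 rose and 1 fell. Wnt3 had 25.02 and 27.9 CPM in suprabasal HB, against 8.50 and 3.17 CPM in ORS (log2 change 2.19 ± 0.38 (SE), adjusted p = 0.00266), and Wnt10b had 64.0 and 61.8 CPM in suprabasal HB, against 28.5 and 10.6 CPM in ORS (log2 change 1.69 ± 0.39 (SE), adjusted p = 0.0108). Both are known as activating ligands of the hair follicle. Wnt10a, Wnt4 and Wnt5a rose by 1.19, 0.998 and 0.94 on the log2 scale, while Wnt5b had 2.15 and 1.43 CPM in suprabasal HB, against 6.60 and 7.07 CPM in ORS (log2 change -1.93 ± 0.20 (SE), adjusted p = 1.66e-04). Wnt5a did not pass without ORS replicate 2 (adjusted p = 0.0689) or suprabasal replicate 2 (adjusted p = 0.0747), and with the fit restricted to the 4 libraries 3 ligands rose.

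Of 15 feedback regulators and target genes of the WNT pathway, 11 rose, 1 fell and the median log2 change was 1.65. Nkd1, an intracellular feedback inhibitor, had 70.6 and 77.8 CPM in suprabasal HB, against 7.63 and 4.10 CPM in ORS (log2 change 3.67 ± 0.27 (SE), adjusted p = 2.85e-05). Sp5, a target transcription factor, had 4.73 and 5.15 CPM in suprabasal HB, against 0.605 and 0.223 CPM in ORS (log2 change 3.59 ± 0.49 (SE), adjusted p = 7.67e-04), and Apcdd1, a membrane-bound inhibitor, had 279.6 and 316 CPM in suprabasal HB, against 72.8 and 32.4 CPM in ORS (log2 change 2.50 ± 0.34 (SE), adjusted p = 6.46e-04). Axin2, the most used readout of the pathway, had 122 and 129 CPM in suprabasal HB, against 46.5 and 33.9 CPM in ORS (log2 change 1.65 ± 0.16 (SE), adjusted p = 1.15e-04). Tcf7, Nkd2, Notum, Bambi and Kremen2 rose as well, with log2 changes from 1.199 to 2.94. Znrf3, a ligase that removes WNT receptors, rose by 0.32 on the log2 scale and did not pass with any 1 of the 4 libraries left out (adjusted p = 0.0616 to 0.154). Ccnd1, the cyclin D1 gene, had 272 and 198 CPM in suprabasal HB and 223 and 139 CPM in ORS and overlapped, and it rose without ORS replicate 1 (adjusted p = 0.0349). The member that fell was Lgr5. Against basal HB, Nkd1, Sp5, Tcf7 and Ccnd1 were higher in suprabasal HB, and Notum, Bambi and Lgr5 were lower.

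Secreted WNT antagonists were not uniform. Of 10 tested, 5 rose and 1 fell. Sfrp4 had 61.3 and 102 CPM in suprabasal HB, against 1.48 and 0.950 CPM in ORS, or 68.0-fold higher (log2 change 6.09 ± 0.38 (SE), adjusted p = 1.41e-05). Dkk3 had 99.7 and 115 CPM in suprabasal HB, against 26.7 and 28.8 CPM in ORS (log2 change 1.95 ± 0.11 (SE), adjusted p = 8.73e-06), and Wif1 had 100.1 and 77.3 CPM in suprabasal HB, against 43.7 and 13.7 CPM in ORS (log2 change 1.63, adjusted p = 0.0205). Sfrp1 ran the other way, with 10.9 and 11.2 CPM in suprabasal HB, against 96.6 and 45.4 CPM in ORS (log2 change -2.68 ± 0.30 (SE), adjusted p = 2.21e-04). Sfrp2 had 5.92 and 1.61 CPM in suprabasal HB, against 1.23 and 0.860 CPM in ORS (log2 change 1.86, adjusted p = 0.0343). Without suprabasal replicate 1, Sfrp2 and Wif1 did not pass (adjusted p = 0.322 and 0.0794) and 3 members rose. Sfrp2 also did not pass without ORS replicate 1 (adjusted p = 0.0613) or ORS replicate 2 (adjusted p = 0.165).

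**Figure D2:**
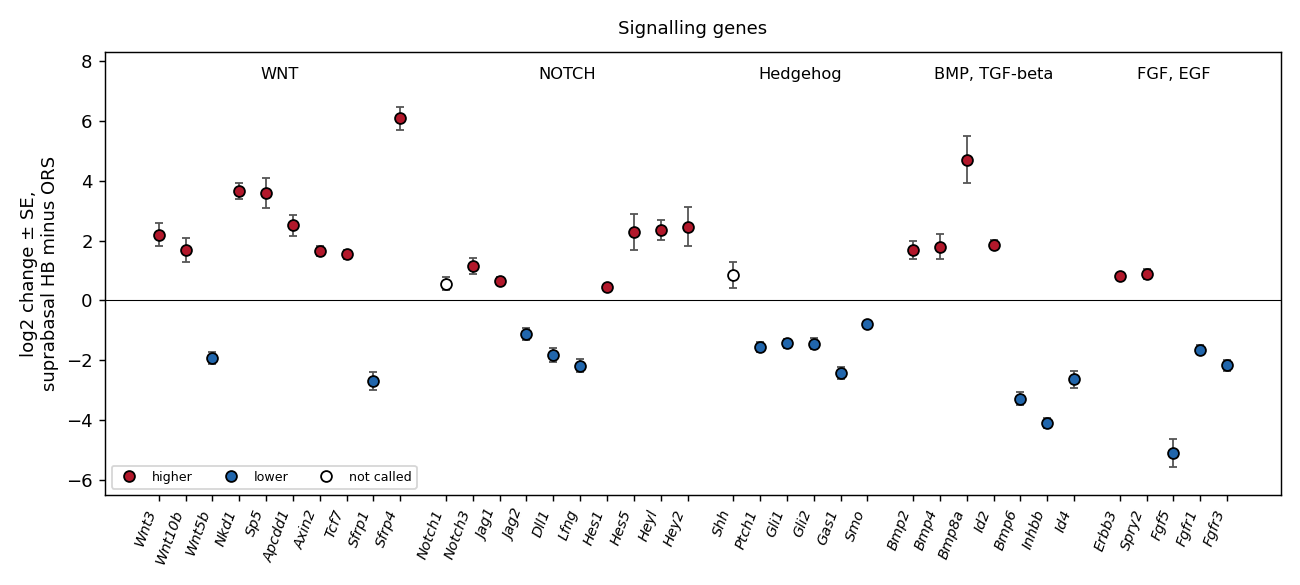
Log2 change ± SE (suprabasal HB minus ORS, from the fit over 9 libraries) of named signalling genes; red points passed the threshold higher, blue points lower, and open points did not pass. The WNT ligands and feedback genes plotted lie above 0 apart from Wnt5b, and Sfrp1 is below it. Hedgehog targets Ptch1 and Gli1 and the effector Gli2 lie below 0, and Shh and Notch1 were not called.

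Several hedgehog pathway genes were lower in suprabasal HB. Shh, made by bulb cells, had 46.8 and 43.0 CPM in suprabasal HB and 37.0 and 13.2 CPM in ORS, where replicate 1 lay near the suprabasal values, and it did not pass (log2 change 0.84, adjusted p = 0.191). Without ORS replicate 1, Shh rose (log2 change 1.77, adjusted p = 0.00779). Ptch1, the receptor and a direct target, had 199.9 and 154 CPM in suprabasal HB, against 521 and 515 CPM in ORS (log2 change -1.55 ± 0.17 (SE), adjusted p = 2.27e-04). Gli1, the effector and target used as a readout, had 101 and 85.9 CPM in suprabasal HB, against 244 and 259 CPM in ORS (log2 change -1.43 ± 0.15 (SE), adjusted p = 1.61e-04). Gli2, an activating effector, and Smo, the signal transducer, fell by 1.44 and 0.78 on the log2 scale, and Gas1, a co-receptor, had 13.9 and 10.3 CPM in suprabasal HB, against 55.3 and 74.6 CPM in ORS (log2 change -2.42 ± 0.20 (SE), adjusted p = 4.47e-05). Gli3, the effector that acts mainly as a repressor, rose to 192 and 216 CPM in suprabasal HB, against 134 and 113 CPM in ORS (log2 change 0.72 ± 0.12 (SE), adjusted p = 0.00246), and the co-receptor Cdon rose by 0.96 on the log2 scale but did not pass without ORS replicate 2 (adjusted p = 0.122) or suprabasal replicate 1 (adjusted p = 0.113). In all, 5 of 12 members fell and 2 rose. Without ORS replicate 1, 4 members rose, and without ORS replicate 2 or suprabasal replicate 1, 1 did.

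NOTCH receptors and targets rose where they passed, and ligands moved both ways. Of 21 tested, 7 rose and 3 fell. Among targets, Heyl had 39.6 and 43.4 CPM in suprabasal HB, against 11.3 and 4.93 CPM in ORS (log2 change 2.36 ± 0.34 (SE), adjusted p = 9.07e-04), Hey2 had 6.37 and 5.28 CPM in suprabasal HB, against 1.82 and 0.335 CPM in ORS (log2 change 2.46, adjusted p = 0.0212), and Hes1 had 119 and 97.7 CPM in suprabasal HB, against 80.4 and 79.3 CPM in ORS (log2 change 0.44, adjusted p = 0.0133). Hes5 had 1.21 and 0.828 CPM in suprabasal HB, against 0.266 and 0.156 CPM in ORS (log2 change 2.28, adjusted p = 0.0206). Without suprabasal replicate 1, Hes1, Hes5, Hey2 and Notch3 did not pass (adjusted p = 0.0768, 0.101, 0.065 and 0.0833). Hes1, Hes5 and Notch3 did not pass without ORS replicate 2 (adjusted p = 0.0667, 0.127 and 0.0852). Among receptors, Notch3 rose to 107 and 64.1 CPM in suprabasal HB, against 46.9 and 30.2 CPM in ORS (log2 change 1.15 ± 0.28 (SE), adjusted p = 0.0139), and Notch1 had 614 and 444 CPM in suprabasal HB and 312 and 404 CPM in ORS without passing (log2 change 0.56, adjusted p = 0.0742), although it passed without suprabasal replicate 2 (adjusted p = 0.0357). The ligand Jag1 had 516 and 430.3 CPM in suprabasal HB, against 273 and 324 CPM in ORS (log2 change 0.66 ± 0.13 (SE), adjusted p = 0.00494). Jag1 did not pass on the TPM scale with a pseudocount of 1 or 0.1, or with the replicate block in the fit of 4 libraries. The ligands Jag2 and Dll1 fell, Jag2 to 254 and 284 CPM in suprabasal HB, against 502 and 669.9 CPM in ORS (log2 change -1.12 ± 0.19 (SE), adjusted p = 0.00216), and Dll1 to 17.2 and 17.4 CPM in suprabasal HB, against 46.1 and 76.4 CPM in ORS (log2 change -1.82 ± 0.22 (SE), adjusted p = 3.75e-04). Lfng, a glycosyltransferase that changes ligand choice, fell to 33.7 and 42.9 CPM in suprabasal HB, against 153 and 195 CPM in ORS (log2 change -2.19 ± 0.22 (SE), adjusted p = 1.27e-04). The count of members that rose was 3 without ORS replicate 2 or suprabasal replicate 1, and 2 on the TPM scale with a pseudocount of 0.1.

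BMP and TGF-β genes divided about evenly, with 8 of 30 higher and 10 lower. Bmp2 and Bmp4, ligands of shaft precursors and of the bulb, had 32.1 and 38.3 CPM and 36.1 and 33.0 CPM in suprabasal HB, against 15.2 and 6.89 CPM and 15.2 and 4.88 CPM in ORS (log2 changes 1.67 and 1.79). Bmp8a had 4.45 and 1.86 CPM in suprabasal HB, against 0.207 and 0.0447 CPM in ORS (log2 change 4.69 ± 0.79 (SE), adjusted p = 0.00221). Id2, a BMP target that blocks basic helix-loop-helix factors, had 217 and 193 CPM in suprabasal HB, against 58.8 and 54.1 CPM in ORS (log2 change 1.86 ± 0.15 (SE), adjusted p = 4.98e-05), whereas its relative Id4 had 30.6 and 16.5 CPM in suprabasal HB, against 129 and 163 CPM in ORS (log2 change -2.63 ± 0.28 (SE), adjusted p = 1.88e-04). Bmp6, a ligand associated with bulge quiescence, had 1.81 and 2.10 CPM in suprabasal HB, against 16.2 and 21.9 CPM in ORS (log2 change -3.28 ± 0.22 (SE), adjusted p = 1.93e-05). Over 5.74% of its exon bases Bmp6 overlaps Txndc5 on the opposite strand, and the part of shared reads was not tested. Inhbb, an activin subunit, had 1.96 and 2.01 CPM in suprabasal HB, against 33.1 and 35.2 CPM in ORS, or 17.2-fold higher in ORS (log2 change -4.10 ± 0.16 (SE), adjusted p = 3.09e-06). Bmpr1b, a type I receptor, had 0.151 and 0.0224 CPM in suprabasal HB, against 0.325 and 1.82 CPM in ORS (log2 change -3.55, adjusted p = 0.0163), and did not pass without ORS replicate 2 (adjusted p = 0.103) or suprabasal replicate 2 (adjusted p = 0.0926).

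Receptors and ligands of the FGF and EGF families moved both ways. Of 26 tested, 7 rose and 8 fell. Fgf5, the ligand that ends the growth phase, had 3.71 and 8.46 CPM in suprabasal HB, against 146 and 267 CPM in ORS, or 34.2-fold higher in ORS (log2 change -5.09 ± 0.46 (SE), adjusted p = 7.49e-05). Fgfr3 had 159 and 161 CPM in suprabasal HB, against 639 and 795 CPM in ORS (log2 change -2.17 ± 0.18 (SE), adjusted p = 4.74e-05), and Fgfr1 had 58.9 and 50.7 CPM in suprabasal HB, against 156 and 185 CPM in ORS (log2 change -1.64 ± 0.16 (SE), adjusted p = 1.20e-04). Erbb3, a neuregulin receptor also known from the melanocyte lineage, rose to 135 and 110.1 CPM in suprabasal HB, against 70.1 and 69.4 CPM in ORS (log2 change 0.82 ± 0.12 (SE), adjusted p = 9.80e-04). Spry2, a feedback inhibitor of receptor signals, rose by 0.89 on the log2 scale. Without ORS replicate 2, or without suprabasal replicate 1, 2 of the list rose.

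Ectodysplasin signals through NF-κB and acts in placode formation and later in the hair cycle. Of 9 genes tested, 3 fell and 1 rose, and 3 rose without ORS replicate 1. Eda, the ligand, fell to 16.3 and 12.7 CPM in suprabasal HB, against 46.5 and 57.3 CPM in ORS (log2 change -1.84 ± 0.15 (SE), adjusted p = 5.35e-05), and its receptor Edar had 21.1 and 16.1 CPM in suprabasal HB and 24.5 and 7.54 CPM in ORS, with overlap, and rose without ORS replicate 1 (adjusted p = 0.0346). Edaradd, the adaptor, fell by 0.67 and Eda2r fell by 1.65 on the log2 scale. Tnfrsf19, the related TROY receptor, rose to 345 and 389 CPM in suprabasal HB, against 124 and 60.7 CPM in ORS (log2 change 1.99 ± 0.30 (SE), adjusted p = 0.00122).

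DNA replication genes were expressed in both populations and stood somewhat lower in suprabasal HB. Of 36 tested, 18 fell and the other 18 were not called, with a median log2 change of -0.36. Pola1, the catalytic subunit of DNA polymerase α, had 55.7 and 57.8 CPM in suprabasal HB, against 104 and 95.0 CPM in ORS (log2 change -0.81 ± 0.08 (SE), adjusted p = 1.67e-04). Mcm6 and Mcm2, subunits of the replicative helicase, had 209 and 199 CPM and 172 and 163 CPM in suprabasal HB, against 311 and 293 CPM and 213 and 217 CPM in ORS (log2 changes -0.56 and -0.36). The groups did not overlap for these genes but lay close. Set against basal HB, 33 of the 36 were higher in suprabasal HB, where 13.1% of all genes were higher. Mcm2 did not pass with any 1 of the 4 libraries left out (adjusted p = 0.0528 to 0.121), and Mcm6 did not pass without ORS replicate 1 (adjusted p = 0.0641), suprabasal replicate 1 (adjusted p = 0.0561) or suprabasal replicate 2 (adjusted p = 0.103). The number of genes that fell against ORS was 7 without either ORS replicate, 9 without suprabasal replicate 1, 5 without suprabasal replicate 2, 10 without either basal HB replicate, and 3 with the replicate block in the fit of 4 libraries. RefSeq windows matched 29 of the 36, of which 6 held the E2F-type motif TTTCGCGC and 6 held TTTGGCGC, present in 0.374% and 0.585% of all genes with a window.

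Mitosis genes showed the same direction more widely. Of 35 tested, 29 fell and the other 6 were not called, with a median log2 change of -0.60. Anln, anillin of the cleavage furrow, had 86.3 and 84.1 CPM in suprabasal HB, against 183 and 185 CPM in ORS (log2 change -1.11 ± 0.10 (SE), adjusted p = 6.87e-05). Mki67, the Ki-67 proliferation marker, had 702 and 671 CPM in suprabasal HB, against 1056 and 1018 CPM in ORS (log2 change -0.60 ± 0.17 (SE), adjusted p = 0.0283). Cenpf, a kinetochore protein, and the spindle motors Kif11 and Kif23 fell with log2 changes from -0.91 to -0.89. Both ORS libraries were above both suprabasal libraries for all of these. Mki67 did not pass with any 1 of the 4 libraries left out (adjusted p = 0.078 to 0.131), and the count of the list was 19 without ORS replicate 1 or suprabasal replicate 1. Against basal HB, 8 of the 35 were higher in suprabasal HB, where 13.1% of all genes were higher.

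Regulators of entry into the cell cycle stood close to the background in number. Of 19 G1 genes, 4 rose, 3 fell and 12 were not called, with a median log2 change of 0.06. Cdk2, the kinase that starts S phase, had 333 and 292 CPM in suprabasal HB, against 88.7 and 86.6 CPM in ORS (log2 change 1.84 ± 0.10 (SE), adjusted p = 8.28e-06). On chromosome 10 (GRCm38), Cdk2 spans 128697939 to 128705031 (minus strand) and the melanosome gene Pmel 128704195 to 128720238 (plus strand). These whole gene spans, introns included, share 837 bases, but no overlap of their exons was long enough to be recorded. Pmel had 3457 and 3304 CPM in suprabasal HB, against 55.4 and 7.13 CPM in ORS. The strand setting of the counting is not stated, and the part of Pmel reads or of melanocytes in the Cdk2 count was not tested. Cdk6, a D cyclin partner, had 27.9 and 33.7 CPM in suprabasal HB, against 91.1 and 131 CPM in ORS (log2 change -1.85 ± 0.17 (SE), adjusted p = 7.85e-05). E2f2 rose by 1.003 and E2f1 fell by 0.51 on the log2 scale, and Rb1, the retinoblastoma gene, rose to 112 and 124 CPM in suprabasal HB, against 82.1 and 54.5 CPM in ORS (log2 change 0.79, adjusted p = 0.0144). E2f2 and Rb1 did not pass without ORS replicate 2 (adjusted p = 0.0605 and 0.0664), E2f2 did not pass without suprabasal replicate 1 (adjusted p = 0.0513), and without suprabasal replicate 2, E2f1 and Rb1 did not pass (adjusted p = 0.0685 and 0.0701). Ccnd2 had 589 and 661 CPM in suprabasal HB and 794 and 725 CPM in ORS and did not pass. Leaving out ORS replicate 2 left 1 of the G1 genes higher, and without either suprabasal replicate, 2 did.

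Of 7 CDK inhibitors, 3 rose and 1 fell. For Cdkn2a, 1 of the 3, both ORS values lie below the level of 3 counts, 0.0443 and 0.0335 CPM in ORS replicates 1 and 2. Cdkn1a, the p21 gene, had 124 and 146 CPM in suprabasal HB, against 32.3 and 18.4 CPM in ORS (log2 change 2.41 ± 0.25 (SE), adjusted p = 1.56e-04), and it was not called between suprabasal HB and basal HB. Cdkn2b, the p15 gene, had 9.63 and 14.5 CPM in suprabasal HB, against 4.07 and 3.51 CPM in ORS (log2 change 1.67 ± 0.26 (SE), adjusted p = 0.00151). Cdkn1c, the p57 gene, had 7.94 and 5.57 CPM in suprabasal HB and 5.64 and 5.46 CPM in ORS, with overlap. Cdkn2a, which encodes p16 and ARF, had 0.0943 and 0.157 CPM in suprabasal HB, against 0.0295 and 0.0223 CPM in ORS (log2 change 2.18 ± 0.68 (SE), adjusted p = 0.0412), and did not pass with any 1 of the 4 libraries left out (adjusted p = 0.0609 to 0.198) or in DESeq2 (adjusted p = 0.134). Cdkn2c, the p18 gene, fell by 0.31 on the log2 scale and did not pass without ORS replicate 1 (adjusted p = 0.156) or without either suprabasal replicate (adjusted p = 0.102 and 0.0921). In the MYC network, Myc had 58.2 and 54.9 CPM in suprabasal HB and 34.8 and 51.0 CPM in ORS and did not pass, but it rose without ORS replicate 2 (log2 change 0.70, adjusted p = 0.00514, against 0.40 with all libraries). Mycn had 76.8 and 101 CPM in suprabasal HB and 72.9 and 68.3 CPM in ORS and did not pass. The MAX partners Mxd1 and Mxi1, which oppose MYC, rose by 0.74 and 0.75, but neither passed on the TPM scale with a pseudocount of 1 or 0.1. Mycl had 191 and 239 CPM in suprabasal HB, against 555 and 745 CPM in ORS (log2 change -1.60 ± 0.21 (SE), adjusted p = 5.94e-04). Ribosome biogenesis genes stood below the background in number, with 2 of 30 higher, 3 lower and a median log2 change of -0.04, and on the TPM scale with a pseudocount of 1, 10 were lower. Without either ORS replicate, or without suprabasal replicate 2, 1 was higher.

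**Figure D3:**
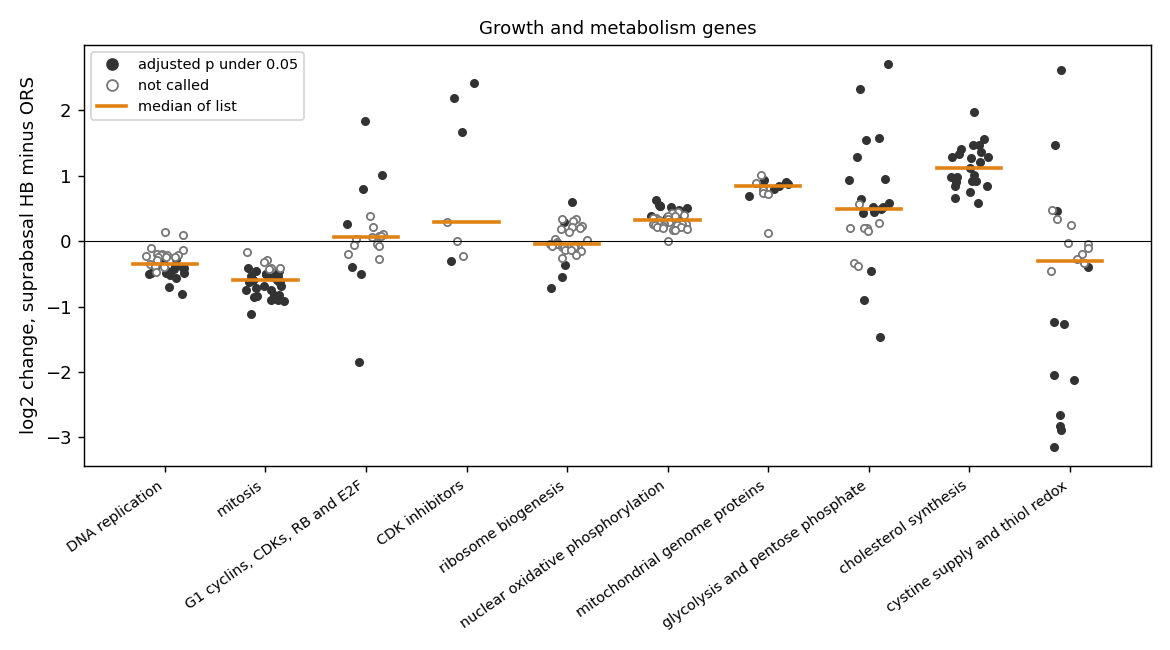
Log2 change (suprabasal HB minus ORS) of each tested member of 10 gene lists; filled points passed the threshold, open points did not, and orange bars are list medians. Replication and mitosis genes lie mostly a little below 0, cholesterol synthesis genes all lie above 0, and the cystine supply and thiol redox list reaches below -3.

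Cholesterol synthesis genes rose throughout the list. All 23 genes tested were higher in suprabasal HB, with a median log2 change of 1.11. Insig1, a sterol-sensing regulator of SREBP, had 239.8 and 146 CPM in suprabasal HB, against 66.8 and 31.4 CPM in ORS (log2 change 1.97 ± 0.36 (SE), adjusted p = 0.00322). Cyp51, the lanosterol demethylase, had 230.1 and 179 CPM in suprabasal HB, against 91.4 and 55.9 CPM in ORS (log2 change 1.47 ± 0.25 (SE), adjusted p = 0.00228), and Msmo1, a sterol methyl oxidase further down the pathway, had 207 and 150.3 CPM in suprabasal HB, against 85.4 and 44.3 CPM in ORS (log2 change 1.46 ± 0.28 (SE), adjusted p = 0.0041). Tm7sf2, a sterol reductase, had 36.4 and 30.1 CPM in suprabasal HB, against 11.8 and 10.9 CPM in ORS (log2 change 1.55 ± 0.14 (SE), adjusted p = 7.86e-05). For these 4 genes both suprabasal libraries were above both ORS libraries, and ORS replicate 1 was above replicate 2. Without ORS replicate 2, 18 of the 23 passed, and on the TPM scale with a pseudocount of 0.1, 15 did. Against basal HB, 4 were higher and 2 lower, close to the shares of 13.1% and 14.8% over all genes. Exons of Cyp51 and Tm7sf2 each overlap another gene, so part of their reads may be uncertain.

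Promoters of 4 cholesterol genes are printed because the whole list moved together. Insig1, Cyp51 and Msmo1 are among the 4 members with the largest change, and Hmgcs1 is the only matched gene whose window holds the SREBP-type motif TCACNCCAC. Letters are RefSeq, GRCm38.p6, 250 bases before the start, 5′ to 3′ on the gene's strand. Capitals mark CCAAT, the motif of the factor NF-Y, which reads ATTGG where it lies on the other strand, and TCACNCCAC.
Insig1 (chr5:28071162-28071411, + strand): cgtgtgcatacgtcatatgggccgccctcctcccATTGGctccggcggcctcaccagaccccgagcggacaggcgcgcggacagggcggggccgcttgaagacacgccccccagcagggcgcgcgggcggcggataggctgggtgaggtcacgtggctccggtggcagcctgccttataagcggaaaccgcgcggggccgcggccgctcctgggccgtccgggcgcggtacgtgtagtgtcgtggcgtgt
Cyp51 (chr5:4104698-4104947, - strand): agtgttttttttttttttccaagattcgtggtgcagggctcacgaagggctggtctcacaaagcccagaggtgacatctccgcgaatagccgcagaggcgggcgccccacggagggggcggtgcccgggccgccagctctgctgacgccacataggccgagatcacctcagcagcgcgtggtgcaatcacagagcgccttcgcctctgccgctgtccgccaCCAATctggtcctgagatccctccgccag
Msmo1 (chr8:64733579-64733828, - strand): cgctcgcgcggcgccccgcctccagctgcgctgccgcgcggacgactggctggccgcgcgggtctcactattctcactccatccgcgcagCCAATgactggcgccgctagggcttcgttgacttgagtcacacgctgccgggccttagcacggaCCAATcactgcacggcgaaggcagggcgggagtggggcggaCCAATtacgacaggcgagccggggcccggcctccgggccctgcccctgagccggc
Hmgcs1 (chr13:119690101-119690350, + strand): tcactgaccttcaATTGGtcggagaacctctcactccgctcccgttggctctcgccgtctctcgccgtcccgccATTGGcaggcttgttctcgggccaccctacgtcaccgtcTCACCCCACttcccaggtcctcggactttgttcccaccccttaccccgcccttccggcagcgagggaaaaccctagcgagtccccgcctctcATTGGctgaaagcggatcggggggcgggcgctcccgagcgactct
RefSeq windows matched 17 of the 23 genes, and CCAAT on either strand was present in all 17, against 41.1% of all 27025 genes with a window. TCACNCCAC was found in 1 of the 17, 137 bases before the start of Hmgcs1, and in 1.44% of all genes with a window. Hmgcs1, HMG-CoA synthase, named for its promoter after its values were seen, had 533 and 509 CPM in suprabasal HB, against 274 and 153 CPM in ORS (log2 change 1.29 ± 0.26 (SE), adjusted p = 0.00634).

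Glycolysis and pentose phosphate genes were mostly higher in suprabasal HB, with 14 of 25 higher and 3 lower. Hk1, a hexokinase, had 41.0 and 36.0 CPM in suprabasal HB, against 7.78 and 7.64 CPM in ORS (log2 change 2.32 ± 0.13 (SE), adjusted p = 9.94e-06). G6pdx, which opens the pentose phosphate route, had 115 and 142 CPM in suprabasal HB, against 47.6 and 40.5 CPM in ORS (log2 change 1.55 ± 0.13 (SE), adjusted p = 5.61e-05), and Slc16a3, a lactate exporter, had 9.86 and 7.09 CPM in suprabasal HB, against 1.56 and 1.04 CPM in ORS (log2 change 2.71 ± 0.33 (SE), adjusted p = 3.65e-04). Slc2a1, the glucose transporter GLUT1, fell, with 27.1 and 26.7 CPM in suprabasal HB, against 33.9 and 40.1 CPM in ORS (log2 change -0.46 ± 0.10 (SE), adjusted p = 0.00992), but did not pass without ORS replicate 2 (adjusted p = 0.0784). Pfkp, a phosphofructokinase, fell by 0.90 and Pfkfb3, which makes the activator of that enzyme, fell by 1.47 on the log2 scale. Without ORS replicate 1, 5 members fell.

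Respiratory chain genes were slightly higher. Nuclear genes of oxidative phosphorylation counted 11 of 38 higher, with a median log2 change of 0.32, but without ORS replicate 2 the count was 0 in edgeR's test. DESeq2 with all libraries called 16. Ndufa4 and Cox6a1 had 131 and 172 CPM and 224 and 237 CPM in suprabasal HB, against 110.4 and 85.2 CPM and 171 and 146 CPM in ORS (log2 changes 0.63 and 0.54). Without ORS replicate 2, Ndufa4 and Cox6a1 did not pass (adjusted p = 0.155 and 0.0518), and without suprabasal replicate 2 Ndufa4 did not pass (adjusted p = 0.142) and 2 of the nuclear genes rose. Genes of the mitochondrial genome counted 7 of 13 higher and made up 4.36% of counts in each suprabasal HB library, against 2.69% and 2.28% in the ORS libraries. mt-Co1, a subunit of the last complex of the chain, had 15261 and 16341 CPM in suprabasal HB, against 8995 and 8363 CPM in ORS (log2 change 0.86 ± 0.16 (SE), adjusted p = 0.00406). Without ORS replicate 2, or without suprabasal replicate 1, 4 of the 13 rose. Mitochondrial genes share sequence with nuclear copies, so the division of their reads is uncertain.

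Genes of cystine supply and thiol redox, which provide the cysteine of glutathione and of hair proteins, fell at several steps. Of 22 tested, 9 fell and 3 rose. Gclc, the catalytic subunit of the enzyme that starts glutathione synthesis, had 89.2 and 85.5 CPM in suprabasal HB, against 496 and 791 CPM in ORS (log2 change -2.88 ± 0.23 (SE), adjusted p = 4.40e-05). Cbs, which makes cystathionine on the way to cysteine, had 32.3 and 23.4 CPM in suprabasal HB, against 208 and 283 CPM in ORS (log2 change -3.14 ± 0.24 (SE), adjusted p = 3.64e-05). Slc7a11, the cystine importer, had 50.6 and 13.7 CPM in suprabasal HB, against 132 and 274 CPM in ORS (log2 change -2.66 ± 0.56 (SE), adjusted p = 0.00717), and the suprabasal libraries differed from each other. Slc1a4, a transporter of serine and other small neutral amino acids, fell by 2.82 on the log2 scale. In the other direction, Slc7a5, the importer of large neutral amino acids including tyrosine, had 910.4 and 986 CPM in suprabasal HB, against 166 and 144 CPM in ORS (log2 change 2.62 ± 0.15 (SE), adjusted p = 8.88e-06), and Srxn1 and Gpx4 rose by 1.47 and 0.46 on the log2 scale. Gpx4, a lipid peroxide reductase, did not pass without ORS replicate 2 (adjusted p = 0.15) or suprabasal replicate 2 (adjusted p = 0.139).

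**Figure D4:**
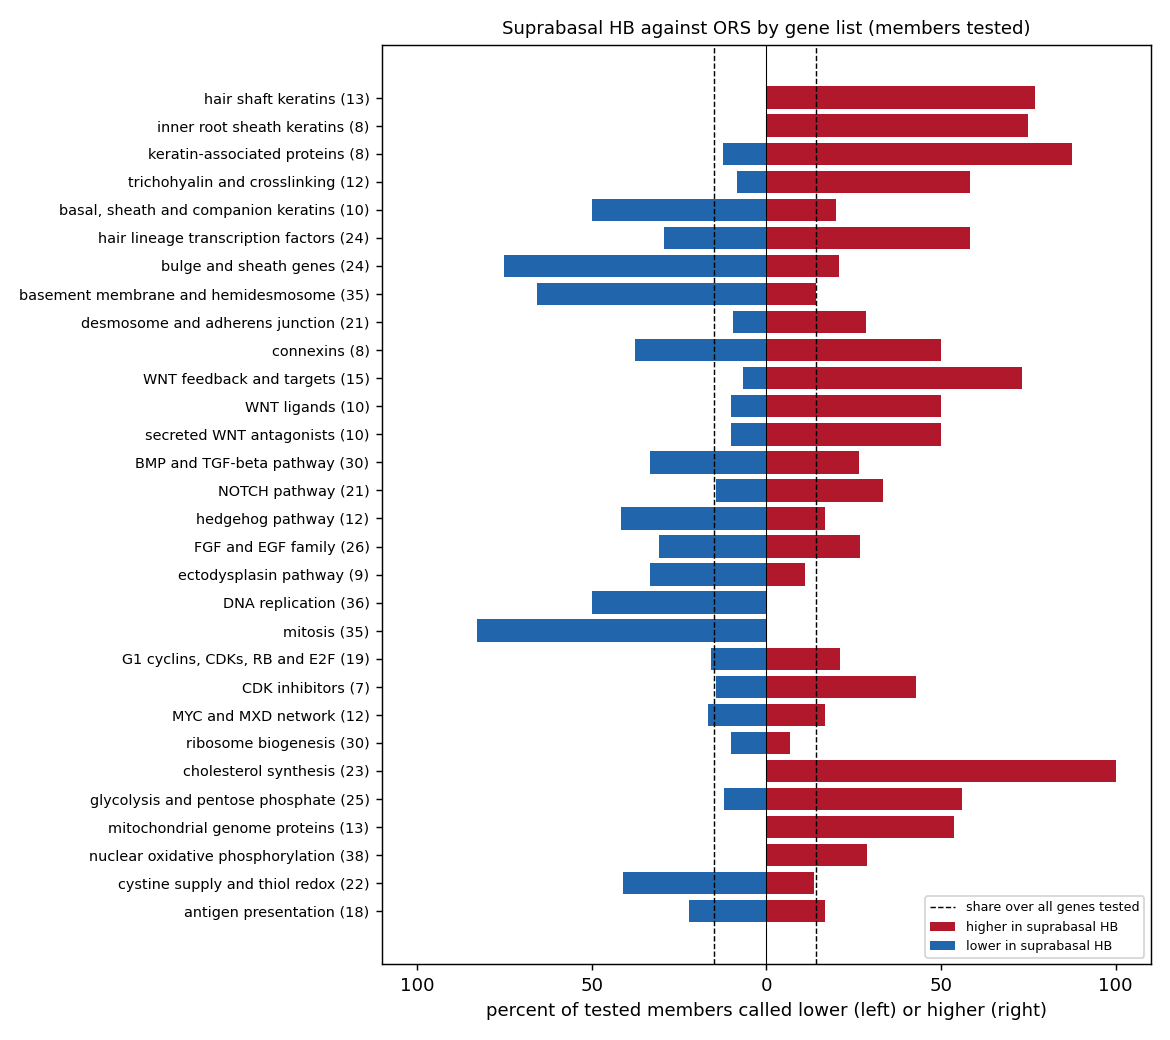
Percent of tested members called higher (red, right) or lower (blue, left) in suprabasal HB against ORS for 30 gene lists, with the number tested in brackets; dashed lines mark the shares over all genes tested, 14.3% higher and 15.1% lower. Cholesterol synthesis and keratin lists reach furthest to the right, and mitosis, bulge and sheath, and basement membrane lists reach furthest to the left.

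Melanocyte genes had the largest median difference of the 41 lists. Melanocytes sit among the matrix cells of the bulb and pass melanin to shaft precursors. All 14 melanocyte genes listed rose in suprabasal HB, with a median log2 change of 6.29, and their summed level was 19530.0 and 20020.0 CPM in suprabasal HB, against 571 and 168 CPM in ORS. Dct, dopachrome tautomerase, had 5209 and 5494 CPM in suprabasal HB, against 108 and 20.0 CPM in ORS (log2 change 6.39 ± 0.77 (SE), adjusted p = 3.65e-04). Tyr, tyrosinase, the enzyme that starts melanin synthesis, had 956 and 1018 CPM in suprabasal HB, against 21.2 and 4.84 CPM in ORS (log2 change 6.25 ± 0.71 (SE), adjusted p = 2.62e-04), and Mitf, the lineage factor, had 265 and 202 CPM in suprabasal HB, against 13.2 and 11.3 CPM in ORS (log2 change 4.25 ± 0.22 (SE), adjusted p = 8.18e-06). ORS replicate 1 exceeded replicate 2 for all 14, by a median of 5.32-fold, and 13 of them were higher in suprabasal HB than in basal HB. Gpnmb, with 1229 and 1331 CPM in suprabasal HB, was the exception, at 2877 and 3016 CPM in basal HB. Kit, Ednrb and Sox10, which melanocytes use for migration and identity, had log2 changes of 3.40, 4.73 and 6.27. The part of pigment cells in other genes that rose was not tested.

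By list median, markers of other cell types moved less, although single members such as Krt8 and Krt18 moved far. Dermal fibroblast and papilla genes counted 7 of 24 higher and 2 lower, with a summed level of 5046 and 2393 CPM in suprabasal HB, against 2196 and 1423 CPM in ORS. Col1a1 had 1209 and 396 CPM in suprabasal HB, against 323 and 194 CPM in ORS (log2 change 1.63, adjusted p = 0.0478). Suprabasal replicate 1 was the highest of the 4, and without it the adjusted p was 0.369, against 0.0563 and 0.224 without ORS replicates 1 and 2. Without ORS replicate 1, 16 of these genes rose, without ORS replicate 2, 3 did, and with the fit restricted to the 4 libraries 1 did, while without suprabasal replicate 1, 3 did. Smooth muscle and mural genes summed to 110.3 and 74.7 CPM in suprabasal HB, against 766 and 670.4 CPM in ORS. The list counted 7 lower without ORS replicate 2. With all libraries the 4 that fell were Acta2, Tagln, Cnn1 and Cspg4, and Acta2 had 33.8 and 20.6 CPM in suprabasal HB, against 240.0 and 210.1 CPM in ORS (log2 change -3.05 ± 0.29 (SE), adjusted p = 9.26e-05). The lineage genes Myh11, Des and Rgs5 overlapped between the groups, with Myh11 at 8.95 and 5.33 CPM in suprabasal HB and 23.0 and 6.29 CPM in ORS. Krt8, a keratin of Merkel cells and simple epithelia, had 0.603 and 0.492 CPM in suprabasal HB, against 29.0 and 23.9 CPM in ORS (log2 change -5.58 ± 0.21 (SE), adjusted p = 2.74e-06). Its partner Krt18 had 0.509 and 0.448 CPM in suprabasal HB, against 18.7 and 19.6 CPM in ORS (log2 change -5.31 ± 0.21 (SE), adjusted p = 3.74e-06). The other 4 Merkel genes tested, Krt20, Sox2, Isl1 and Piezo2, were not called and stayed under 3 CPM in all 4 libraries, and Krt20 and Sox2 passed as higher without ORS replicate 1 (adjusted p = 0.0467 and 0.0475). Of 15 immune genes tested, 0 passed in edgeR, 0 in DESeq2, and 0 had an unadjusted p under 0.05 in edgeR, and the list summed to 60.5 and 136 CPM in suprabasal HB and 119.6 and 76.2 CPM in ORS. Endothelial and blood genes summed to 97.0 and 172 CPM in suprabasal HB and 93.4 and 92.6 CPM in ORS, with 2 of 16 higher and Tek, an angiopoietin receptor, the 1 lower. The number higher was between 0 and 4 with any 1 library left out. Of 16 epidermal differentiation genes tested, 3 rose and 1 fell. With any 1 of the 4 libraries left out 0 fell, while 8 rose without ORS replicate 1 and 1 rose without ORS replicate 2 or suprabasal replicate 1. Of 15 sebaceous gland genes, 6 rose, among them Pparg, at 2.60 and 3.51 CPM in suprabasal HB, against 0.709 and 0.458 CPM in ORS (log2 change 2.39, adjusted p = 0.00165).

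**Figure D5:**
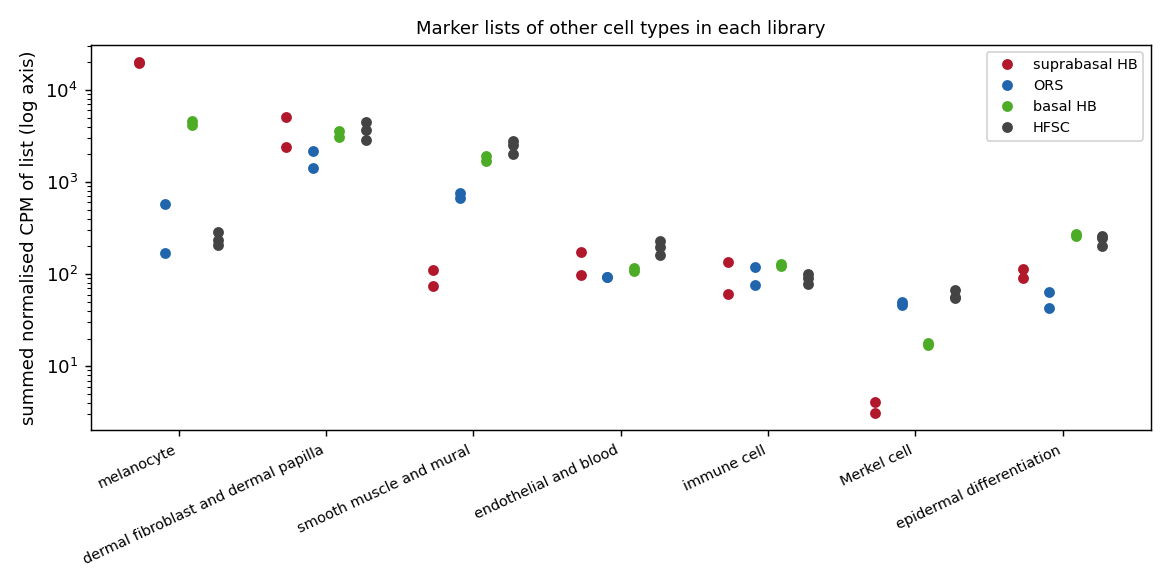
Summed normalised CPM (log axis) of marker lists of other cell types in each library of suprabasal HB, ORS, basal HB and HFSC. Melanocyte genes sum to 19530.0 and 20020.0 CPM in suprabasal HB and 571 and 168 CPM in ORS, smooth muscle genes are lowest in suprabasal HB, and immune genes overlap between suprabasal HB and ORS.

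The sort markers followed the populations in part. Cd34 had 26.1 and 18.4 CPM in suprabasal HB, against 65.7 and 80.7 CPM in ORS (log2 change -1.72 ± 0.19 (SE), adjusted p = 2.08e-04), while Ly6a, which encodes Sca-1, had 12.7 and 9.87 CPM in suprabasal HB, against 6.55 and 3.60 CPM in ORS (log2 change 1.16, adjusted p = 0.0467). Ly6a shares sequence with related genes and did not pass without ORS replicate 2 (adjusted p = 0.232) or either suprabasal replicate (adjusted p = 0.168 and 0.0744). Levels of genes used to gate cells, which may include Lhx2, are not an independent result. Xist, expressed from the inactive X, had 1.23 and 1.05 CPM in suprabasal HB, against 1.11 and 1459 CPM in ORS, and ORS replicate 2 alone held it at a high level, so its call as lower (log2 change -9.32, adjusted p = 0.0195) rests on that library. Ddx3y, from the Y chromosome, had 85.7 and 96.2 CPM in suprabasal HB and 93.1 and 51.7 CPM in ORS and was present in all 4 libraries. In basal HB, Xist had 359 and 298 CPM and Ddx3y 70.3 and 71.2 CPM. In HFSC, Xist had 1285, 1188 and 1437 CPM and Ddx3y 0, 0 and 0.036 CPM. The mix of sexes thus differed between populations that share the estimate of spread. The part of these differences, between the ORS libraries and between populations, in other results was not tested.

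Antigen presentation genes stood close to the background, with 3 of 18 higher and 4 lower. B2m, the light chain of MHC class I, rose to 131 and 156 CPM in suprabasal HB, against 68.3 and 57.0 CPM in ORS (log2 change 1.196 ± 0.12 (SE), adjusted p = 1.36e-04), while the peptide transporters Tap1 and Tap2 fell by 0.68 and 1.16 on the log2 scale. Of 24 immediate early and heat shock genes, which also respond to cell dissociation, 3 rose and 5 fell. Without suprabasal replicate 1, 11 fell, and without ORS replicate 2, 3 fell and 1 rose. Egr1 had 247 and 99.0 CPM in suprabasal HB, against 498 and 504 CPM in ORS (log2 change -1.54 ± 0.34 (SE), adjusted p = 0.00901), and was lowest in suprabasal replicate 2. Fosl2, an AP-1 subunit, had 239 and 306 CPM in suprabasal HB, against 131 and 117 CPM in ORS (log2 change 1.14 ± 0.15 (SE), adjusted p = 6.35e-04).

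The 10 largest rises were dominated by pigment cell genes. They were Oca2, Ptgds, Pmel, Slc45a2, Tyrp1, Mlana, Atp6v0d2, Slc24a4, Slc24a5 and Mcoln3, with log2 changes from 6.42 to 6.87. Ptgds, prostaglandin D synthase, had 883 and 1064 CPM in suprabasal HB, against 14.9 and 2.61 CPM in ORS (log2 change 6.81 ± 0.76 (SE), adjusted p = 2.41e-04). Oca2, a melanosome channel, had 531 and 556 CPM in suprabasal HB, against 8.35 and 1.06 CPM in ORS. The 10 largest falls included Dhrs9, Lgr5, Lrrn2, Gm13306, Ret, Dapk2, Myrf, Cyp2s1 and Igfbp3. Dhrs9, a retinol dehydrogenase, had 1.45 and 0.918 CPM in suprabasal HB, against 72.5 and 104.8 CPM in ORS (log2 change -6.21 ± 0.31 (SE), adjusted p = 6.04e-06). Ret, the receptor kinase for GDNF family ligands, had 5.75 and 4.83 CPM in suprabasal HB, against 180.1 and 273 CPM in ORS (log2 change -5.42 ± 0.29 (SE), adjusted p = 8.73e-06), and Igfbp3, an IGF binding protein, had 21.5 and 15.04 CPM in suprabasal HB, against 411 and 874 CPM in ORS (log2 change -5.13 ± 0.40 (SE), adjusted p = 3.82e-05). The falls named here were also lower in suprabasal HB than in basal HB, and in the HFSC libraries Ret had 383, 333 and 352 CPM. Gm13306 shares most of its sequence with other transcripts, so its count is uncertain.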

How the data were processed

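RNA from sorted cells was purified with TRIzol LS and the Direct-zol kit, and poly(A) libraries were made with the Illumina TruSeq mRNA kit and paired-end sequenced on a HiSeq instrument, per the labels' protocols. Reads were counted by the authors with RSEM 1.2.30 and Bowtie2 2.2.9 on mm10, per the submitters' processing notes. The strand setting and annotation release are not given in the sources used here. Exons of a number of named genes, Notum and Kremen2 among them, overlap a gene on the opposite strand, and the part of shared reads in their counts was not tested. The deposited file of each library holds expected counts, which are estimates that divide reads among genes that share sequence, and TPM values computed by the authors. A series table of 9 columns was not used, since some of its names match no label, and neither were FPKM values or the 92 spike-in rows, which summed to 0.

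Expected counts were rounded and genes kept by edgeR's filterByExpr (20491 of 46517 rows). TMM factors and edgeR 4.0.16 (R 4.3.3) quasi-likelihood fits of 4 population means over all 9 libraries (5 residual degrees of freedom) gave the contrasts of suprabasal HB with ORS and with basal HB, with Benjamini-Hochberg adjustment over all genes tested. Pooling the 9 libraries assumes that all populations vary alike. Having 2 libraries in each group compared limits precision, and the part of depth was not tested. An exact permutation test of 2 against 2 cannot go below p = 0.333, so single values were not tested that way. Levels are CPM on TMM-scaled library sizes. The script was tested on simulated counts.

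Genes were named by a rule. It takes the 10 largest rises and falls among called protein-coding autosomal genes with at least 10 CPM in the higher group, 1 CPM in the lower group and no overlap. It adds up to 4 called genes in each direction per list without overlap and with at least 1 CPM in the higher group, every member of the short lists, and a set of known follicle and sort genes. A few genes that the rule names are not reported here. The 41 lists and the rule were chosen with earlier results of these data known. Alternatives were DESeq2 1.42.0 (size factors and Wald test), upper-quartile factors, TMM without the most cell-type-bound genes, other filters, the 4 libraries alone, a replicate block, limma 3.58.1 on log2(TPM + 1) and log2(TPM + 0.1), and leaving out each library. Gene positions are from GENCODE for GRCm38 (the mm10 assembly), matching 98.9% of identifiers, and promoters from RefSeq for GRCm38.p6.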

Additional observations from a re-analysis of the deposited data

How the results depend on the processing

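Genes called between suprabasal HB and ORS numbered 6021 with all 9 libraries, 3992 with the fit restricted to the 4 libraries and 3780 with the replicate block added to that fit, of which 2033 and 1811 were lower. With 1 library left out the total ranged from 3884 to 6296, the number higher from 1831 to 3131 and the number lower from 2053 to 3165, the lowest each time without ORS replicate 2. On log2(TPM + 1) 1835 genes were higher and 4035 lower, and on log2(TPM + 0.1) 1763 and 4067, with median log2 changes over all genes of -0.13 and -0.21. The part of gene length and of the missing TMM scaling in this shift was not tested. Against basal HB the total was 5721 and ranged from 2761 (without basal HB replicate 1) to 5919 with 1 library left out, with 3138 without basal HB replicate 2 and 3643 without suprabasal replicate 2. The other scalings and filters and the DESeq2 test kept these counts within 1.5 times. Same-numbered libraries of the 2 populations deviated together at r = 0.068 across genes over 2 pairs, so the numbers were not taken as pairing. With the replicate block in the fit of 9 libraries, 2731 genes were higher and 2781 lower.

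Of 215 called genes named here, 166 kept their direction and call in all 20 alternatives. With 1 library left out, Xist ranged from -10.32 to 0.046, the positive value without ORS replicate 2. Genes that had not passed changed sign as follows, in log2 change. On log2(TPM + 1) and log2(TPM + 0.1), Dlx3 was -0.13 and -0.13, and Padi3 was -0.062 and -0.062. With 1 library left out, Dlx3 ranged from -0.0057 to 0.18, Padi3 from -0.21 to 0.49, Edar from -0.40 to 1.30, Ddx3y from -0.033 to 0.81, Myh11 from -1.68 to 0.19, Des from -0.86 to 0.57, Rgs5 from -1.12 to 0.45 and Isl1 from -1.10 to 0.17. The cause was not tested. On TPM, hair shaft keratins took 0.193% and 0.190% in suprabasal HB, against 0.009% and 0.004% in ORS.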
